A study of Mus musculus with 6 samples.

Results

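The genes described here belong to the MHC class I presentation pathway, as class I chains, peptide transport, trimming and loading factors, and a transcriptional coactivator: B2m, H2-K1, H2-D1, H2-T23, Tap1, Tap2, Tapbp, Nlrc5 and Erap1. They were chosen by symbol, as the rows of the deposited matrix that carry these names, and all 9 were found among its 19309 genes. The matrix holds bulk RNA-seq counts of M2c-polarized macrophages from mice without the soluble epoxide hydrolase (sEH-/-, 3 libraries) and from wild-type mice (3 libraries), and the question was which transcripts depend on the enzyme. Soluble epoxide hydrolase, encoded by Ephx2, converts the epoxides that cytochrome P450 enzymes make from polyunsaturated fatty acids into diols. Both groups were bone-marrow-derived cells of 8- to 10-week-old mice, differentiated over 7 days with 15 ng/mL of M-CSF and as much GM-CSF, stimulated with LPS at 10 ng/mL plus IFN-γ at 1 ng/mL, and then given TGF-β1 at 10 ng/mL. The labels give 24 h for LPS with IFN-γ and 48 h for TGF-β1, whereas the study's methods give 12 h for the former and 24 or 48 h for the latter. The deletion affects the whole animal, so precursors and bone marrow also lacked the enzyme. The study used littermates, mostly females, and counted each library as 1 mouse. Before describing the RNA-seq, it states that experiments following its comparison of the sexes used bone marrow of female mice. No sex was given for the single libraries in the sources used here. No library came from unstimulated cells or from cells treated with IFN-γ alone, so all levels below are those of macrophages that had received IFN-γ before TGF-β1.

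Almost every nucleated cell displays peptides from its own cytosol on class I molecules. The proteasome cuts proteins, the transporter formed by TAP1 and TAP2 carries the peptides into the endoplasmic reticulum, ERAP1 trims them, and tapasin (Tapbp) holds the empty heavy chain at the transporter until a peptide fits. The complete molecule is a heavy chain (H2-K1 and H2-D1 are the classical ones of this strain, H2-T23 encodes the nonclassical Qa-1) joined to β2-microglobulin (B2m), and it is read by CD8+ T cells and NK cell receptors. IFN-γ is the classical inducer of the whole set, acting in part through IRF1 and NLRC5, the latter a nucleotide-binding protein that enters the nucleus and drives class I promoters.

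Of these genes, 6 lie on chromosome 17 within or next to the MHC (mm10, as the matrix gives them): Tapbp at chr17:33915899-33929292 on the plus strand, H2-K1 at chr17:33996017-34000347 on the minus strand, Tap1 at chr17:34187553-34197225 and Tap2 at chr17:34203527-34216321 on the plus strand, H2-D1 at chr17:35262730-35267499 on the plus strand and H2-T23 at chr17:36029773-36032855 on the minus strand. The other genes lie elsewhere: B2m at chr2:122147686-122153083, Nlrc5 at chr8:94434356-94527272 and Erap1 at chr13:74639568-74693201, all on the plus strand. The counts are of reads over exons, so each value sums all exons of a gene.

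Promoters of the heavy chains and of B2m are shown first because they carry the elements through which NF-κB, the interferon factors and the NLRC5-containing complex are known to act. Each is the 180 bases before the RefSeq start (GRCm38.p6), 5′ to 3′ on the gene's strand, with capitals marking GGGGATTCC (kappa B), TGACG (core of the cyclic AMP response element, as in the X2 box), CCAAT (Y box core) and GAAANNGAA (core of the interferon-stimulated response element) on either strand. The first covers chr17:34000348-34000527 (minus strand) and the second chr2:122147507-122147686 (plus strand).
H2-K1: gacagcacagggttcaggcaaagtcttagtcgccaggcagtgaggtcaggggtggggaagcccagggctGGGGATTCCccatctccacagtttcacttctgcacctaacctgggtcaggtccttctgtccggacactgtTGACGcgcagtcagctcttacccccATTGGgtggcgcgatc
B2m: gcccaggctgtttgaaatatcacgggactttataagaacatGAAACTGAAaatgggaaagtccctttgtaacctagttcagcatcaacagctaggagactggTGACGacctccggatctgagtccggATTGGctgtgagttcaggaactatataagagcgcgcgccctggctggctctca
In the H2-K1 window the kappa B match began 111 bases before the start, TGACG 41 bases and the reversed Y box core 16 bases before it. The B2m window held the interferon core from base -139, TGACG from base -78 and the reversed Y box core from base -53, and no kappa B match. H2-D1 had the kappa B match too, and the 30 bases around it are set beside those of H2-K1 (chr17:34000438-34000467 for H2-K1 and chr17:35262914-35262943 for H2-D1), of which 29 are identical.
H2-K1: cccagggctGGGGATTCCccatctccacag
H2-D1: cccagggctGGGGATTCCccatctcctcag

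RefSeq promoter windows of 300 bases (250 before to 50 after the start) were found for 7 of the 9 genes, in 8 windows, since H2-K1 has a pair of overlapping ones. Among 32851 promoter windows of the genome, GGGGATTCC occurred in 0.25%, against 3 of the 8 windows here (both of H2-K1 and that of H2-D1). Both H2-K1 windows hold the same site. These letters were chosen as the start of the kappa B site known from class I promoters, so the shares are no independent finding. TGACG occurred in 5 of 8 windows (20.8% genome-wide) and CCAAT in 7 of 8 (37.4% genome-wide), with all letters searched on both strands. The interferon core occurred in 3 of 8, those of B2m, Erap1 and H2-T23 (8.56% genome-wide). Only exact letters were counted, so windows without a match, such as those of H2-K1 and H2-D1, can still hold a variant of this element. Tap2 and Nlrc5 have no window in the table used. These matches are descriptions of letters and were not tested for binding.

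All 9 genes were well above the detection limit and each had a mean count above 5, the minimum for testing. Levels between genes can be compared only per length, here as CPM per kilobase of exon. CPM are counts scaled to a common library size with TMM factors. The length was that of all annotated exons of a gene, which can exceed that of the transcript in use. It was 5476 bases for Tap1, 3781 for Tap2 and 2938 for H2-K1, whereas their principal transcripts have 2953, 3442 and 1619. The order below therefore depends on the length used. The order over the 6 libraries was B2m (mean 177 CPM per kilobase, range 154 to 205), H2-D1 (114, 100 to 131), H2-K1 (99.6, 86.3 to 113), Tapbp (90.9, 78.7 to 105), H2-T23 (64.8, 56.6 to 71.8), Tap1 (55.4, 51.2 to 59), Tap2 (55.2, 49.5 to 57.6), Erap1 (35.5, 32.6 to 37.1) and Nlrc5 (32.8, 23.8 to 41.5). B2m was above H2-D1, H2-D1 above H2-K1, H2-K1 above Tapbp, Tapbp above H2-T23, and H2-T23 above Tap1 in 6 of 6 libraries, although the ranges of H2-D1 and H2-K1, of H2-K1 and Tapbp and of H2-T23 and Tap1 overlapped. Tap1 and Tap2, the chains that pair in the transporter, were not separated on this length: Tap1 was higher in 4 of 6 libraries. Erap1 was above Nlrc5 in 4 of 6 libraries, namely the 3 wild-type libraries and sEH-/- replicate 3. Their mean levels were 34.4 and 27.1 CPM per kilobase in wild-type cells and 36.7 and 38.5 in sEH-/- cells.

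Duplicate reads had been removed before counting, which limits how often a position of a transcript can be counted. B2m reached 0.883 to 0.95 counts per base of its 860 exonic bases, the second-highest density of 13778 tested genes with a known length, after Ctss (0.972). H2-D1 followed with a mean of 0.59 counts per base (rank 47), H2-K1 with 0.515 (rank 81), Tapbp with 0.47 (rank 120), H2-T23 with 0.335 (rank 405), Tap1 with 0.288, Tap2 with 0.287, Erap1 with 0.185 and Nlrc5 with 0.169. Library totals differed 1.385-fold, from 4400197 to 6096440 counts, yet the highest and lowest B2m counts differed 1.08-fold, those of H2-K1 and H2-D1 1.09-fold and those of Tapbp 1.12-fold. Counts of Tap2 and Erap1 differed 1.32-fold. Within genotypes, the slope of log2 counts on log2 totals, which is 1 where counts are proportional to the total, was 0.148 for B2m, 0.232 for H2-D1, 0.287 for H2-K1, 0.326 for H2-T23, 0.339 for Tapbp, 0.583 for Nlrc5, 0.685 for Tap1, 0.82 for Tap2 and 0.872 for Erap1. Over tested genes averaging 50 counts or more, the median slope was 1.11 for the 5751 genes with 0.05 to 0.2 counts per base, 0.748 for the 1288 genes with 0.2 to 0.4, 0.458 for the 186 genes with 0.4 to 0.6 and 0.248 for the 43 genes above. Among those 43 genes no adjusted p was below 0.05, and among the 186 genes 1.08% were. A difference between genotypes in B2m, H2-D1, H2-K1 or Tapbp RNA need not appear in full in such counts. With counts corrected for a limit of 1 per exonic base, none of these genes was called by edgeR. Their log2 fold changes were 0.002, 0.041, 0.11 and 0.12, in that order. Densities and this correction used all annotated exons of a gene, and both are too small where a shorter transcript is in use. The principal transcript of H2-K1 has 1619 of the 2938 bases counted, and that of Tap1 2953 of 5476. Which transcripts were in use was not measured.

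**Figure D1:**
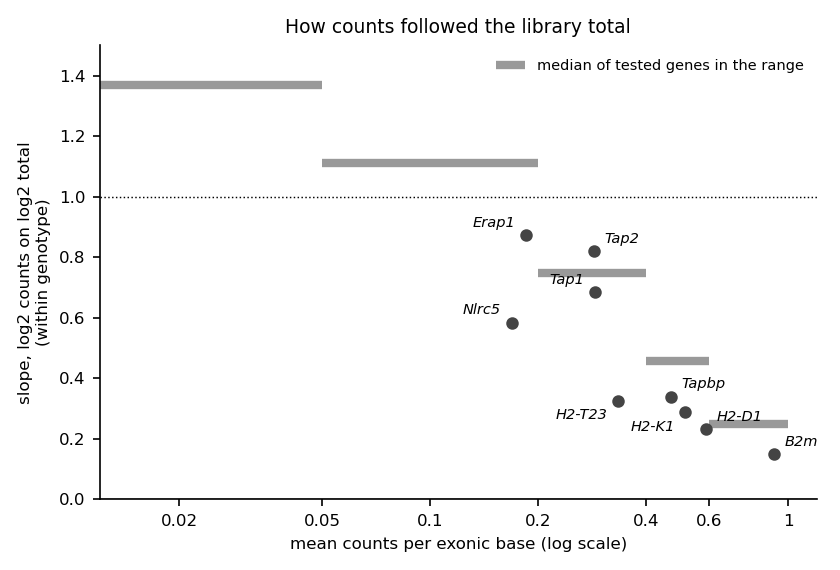
Slope of log2 counts on log2 library total, fitted within genotypes (vertical axis), against the mean counts per exonic base (horizontal axis, log scale) for the 9 class I genes (points); grey bars give the median of tested genes averaging 50 counts or more in each density range, and the lowest range is cut off by the axis. The points run from Erap1 at 0.872 to B2m at 0.148, all below the dotted line at 1 where counts follow the total.

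The heavy chains and β2-microglobulin had nearly the same counts in both genotypes. B2m had 782, 796 and 759 counts in sEH-/- replicates 1 to 3 and 773, 817 and 789 in wild-type replicates 1 to 3. H2-K1 had 1569, 1525 and 1434 counts in the sEH-/- and 1457, 1562 and 1524 in the wild-type libraries. H2-D1 had 1548, 1490 and 1454 against 1489, 1589 and 1560 counts, in the same order. The groups overlapped for each of these genes, and the CPM values within a genotype ran opposite to the totals: B2m was at 134, 161 and 176 CPM in the sEH-/- libraries, whose totals were 5818444, 5013265 and 4400197, and at 170, 133 and 141 CPM in the wild-type libraries, whose totals were 4632688, 6096440 and 5448287. Fitted log2 fold changes (sEH-/- over wild-type, edgeR quasi-likelihood) were 0.083 for B2m (SE 0.12, 95% interval -0.17 to 0.34, adjusted p = 0.72), 0.10 for H2-K1 (SE 0.11, interval -0.14 to 0.34, adjusted p = 0.62) and 0.062 for H2-D1 (SE 0.11, interval -0.19 to 0.31, adjusted p = 0.79). These intervals cover the spread between libraries and not the limit on dense counts described above. In bulk samples, more cells of a type and more RNA per cell cannot be told apart.

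H2-T23, the heavy chain of Qa-1, which presents leader peptides of other class I chains to NKG2A, had 990, 993 and 895 counts in the sEH-/- libraries against 930, 1007 and 995 counts in the wild-type ones. Its log2 fold change was 0.08 (SE 0.1, interval -0.15 to 0.31, edgeR adjusted p = 0.69) and the groups overlapped. Heavy-chain counts are uncertain where the genes share sequence, because reads that map to several places were removed before counting. Of all 50-base windows in the principal transcript of each gene, 8.79% in H2-K1, 14.3% in H2-D1 and 28.8% in H2-T23 also occurred in transcripts of other genes, against 0% in B2m, Nlrc5 and Erap1, 0.861% in Tap1, 0.737% in Tap2 and 2.0% in Tapbp. With 75-base windows the shares were 1.55% in H2-K1, 6.9% in H2-D1 and 13.1% in H2-T23. The longest coding stretch that H2-K1 and H2-D1 share letter for letter is 91 bases (bases 738 to 828 of the H2-K1 and 747 to 837 of the H2-D1 coding sequence, GENCODE vM21, GRCm38), and it is printed because a read that fell wholly within it could be given to neither gene.
Shared by H2-K1 and H2-D1: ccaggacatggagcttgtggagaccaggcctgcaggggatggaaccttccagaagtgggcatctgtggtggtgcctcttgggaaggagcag
The longest shared coding stretch was 145 bases for H2-D1 with H2-T23 and 81 bases for H2-K1 with H2-T23.

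The peptide transporter showed no difference beyond the spread either. Tap1 had 1719, 1505 and 1394 counts in the sEH-/- libraries against 1464, 1728 and 1660 in the wild-type ones, and Tap2 had 1242, 1069 and 939 against 976, 1154 and 1141. Both followed the library total more closely than the heavy chains did, and their groups overlapped. As CPM, Tap1 averaged 307 ± 14.9 in sEH-/- and 300 ± 20.8 in wild-type cells, and Tap2 215 ± 2.65 and 202 ± 13.8 (SD, n = 3 each). The log2 fold change was 0.034 for Tap1 (SE 0.081, interval -0.15 to 0.21, edgeR adjusted p = 0.85) and 0.092 for Tap2 (SE 0.073, interval -0.07 to 0.25, adjusted p = 0.49).

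For tapasin and the trimming peptidase, too, the difference was within the spread between libraries. Tapbp had 1825, 1666 and 1638 counts in the sEH-/- libraries against 1628, 1760 and 1711 counts in the wild-type ones (343 ± 34.3 and 317 ± 37.2 CPM). Erap1 had 1537, 1326 and 1166 counts in the sEH-/- libraries against 1221, 1509 and 1323 counts in the wild-type ones (267 ± 3.74 and 250 ± 16.3 CPM). The wild-type libraries overlapped the sEH-/- ones for both genes, for Erap1 through wild-type replicate 1 at 268 CPM. The log2 fold change was 0.11 for Tapbp (SE 0.1, interval -0.12 to 0.35, edgeR adjusted p = 0.56) and 0.095 for Erap1 (SE 0.074, interval -0.07 to 0.26, adjusted p = 0.49).

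**Figure D2:**
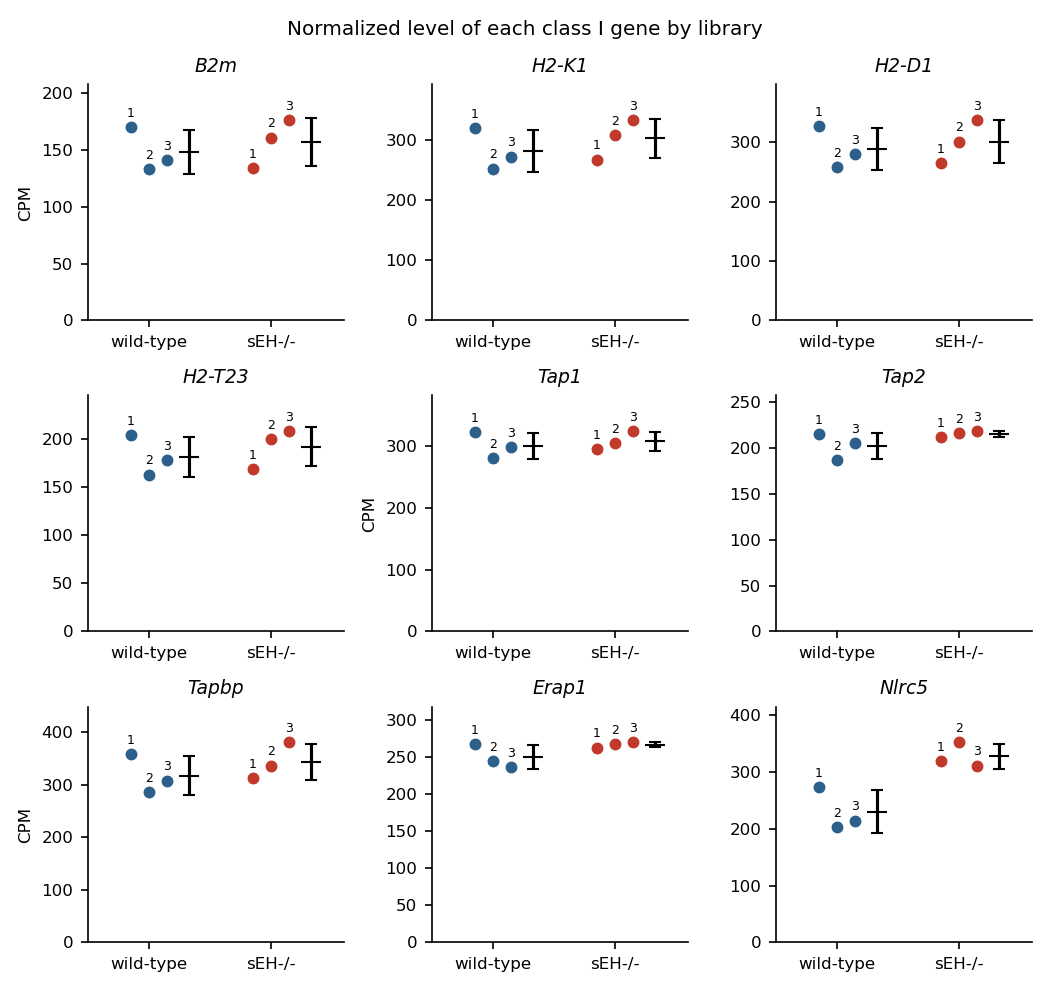
TMM-scaled CPM (vertical axes, starting at 0) of each class I gene in the 3 wild-type and 3 sEH-/- libraries; points are libraries with their replicate numbers, and the black mark with its bar is the group mean with SD. For 8 genes the groups overlap, and for Nlrc5 the sEH-/- libraries (311 to 352 CPM) all lie above the wild-type libraries (203 to 273 CPM).

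Nlrc5, the transcriptional coactivator of class I genes, had higher counts in sEH-/- cells. It reached 1863, 1746 and 1341 counts in the sEH-/- and 1244, 1248 and 1193 in the wild-type libraries, or 319, 352 and 311 CPM against 273, 203 and 214 CPM. Every sEH-/- library was above every wild-type library, while wild-type replicate 1 was the closest. The sEH-/- mean was 327 ± 22 CPM and the wild-type mean 230 ± 38.1 CPM (SD, n = 3 each), a 1.43-fold difference with a log2 fold change of 0.51 (SE 0.11, interval 0.26 to 0.76) and an edgeR adjusted p of 0.038. It thus passed the adjusted p threshold of 0.05 but not the 1.5-fold threshold that the study also required. At adjusted p alone, 2.39% of all tested genes were higher in sEH-/- cells, and groups that did not overlap in that direction were found for 11.8%.

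The adjusted p of Nlrc5 depended on single libraries. Without wild-type replicate 1 its log2 fold change was 0.65 with an adjusted p of 0.0068, past both thresholds. Without wild-type replicate 2 or 3 the adjusted p was 0.193 and 0.171, and without sEH-/- replicate 2 it was 0.123, with log2 fold changes of 0.43, 0.46 and 0.47. With the library total as a covariate the log2 fold change was 0.48 and the adjusted p 0.0501, and DESeq2 gave 0.52 and 0.00025. When counts were corrected as if each exonic base could be counted only 1 time, the fold change was 0.56 with an adjusted p of 0.0338.

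**Figure D3:**
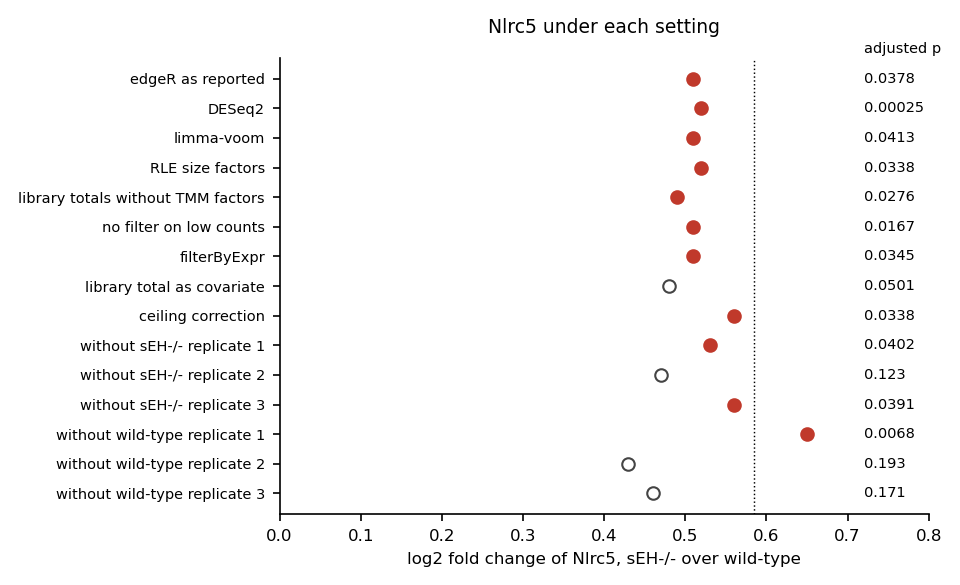
Log2 fold change of Nlrc5, sEH-/- over wild-type (horizontal axis), under the reported edgeR fit and under other tests, normalizations, filters, corrections and with each library left out (rows), with the adjusted p of each at the right. Red points have an adjusted p below 0.05, open points do not, and the dotted line marks the 1.5-fold threshold, which only the fit without wild-type replicate 1 exceeds. The edgeR fit with a block for the replicate number (log2 fold change 0.52, adjusted p = 0.0604) is not shown.

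A ratio between genes of the same library needs no scaling by its total, although it still moves with the total where the genes differ in counts per base. Nlrc5 counts divided by Erap1 counts, the gene of this set closest to it in counts per base, were 1.21, 1.32 and 1.15 in the sEH-/- libraries against 1.02, 0.827 and 0.902 in the wild-type ones. Divided by B2m counts they were 2.38, 2.19 and 1.77 in sEH-/- against 1.61, 1.53 and 1.51 in wild-type libraries. The groups did not overlap for any of the 8 partners. All 8 ratios share the same Nlrc5 counts, whose CPM already separated the groups, so they are not 8 separate observations. An exact permutation test of 3 against 3 libraries cannot give a two-sided p below 0.1, and these ratios were computed after the values had been seen.

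**Figure D4:**
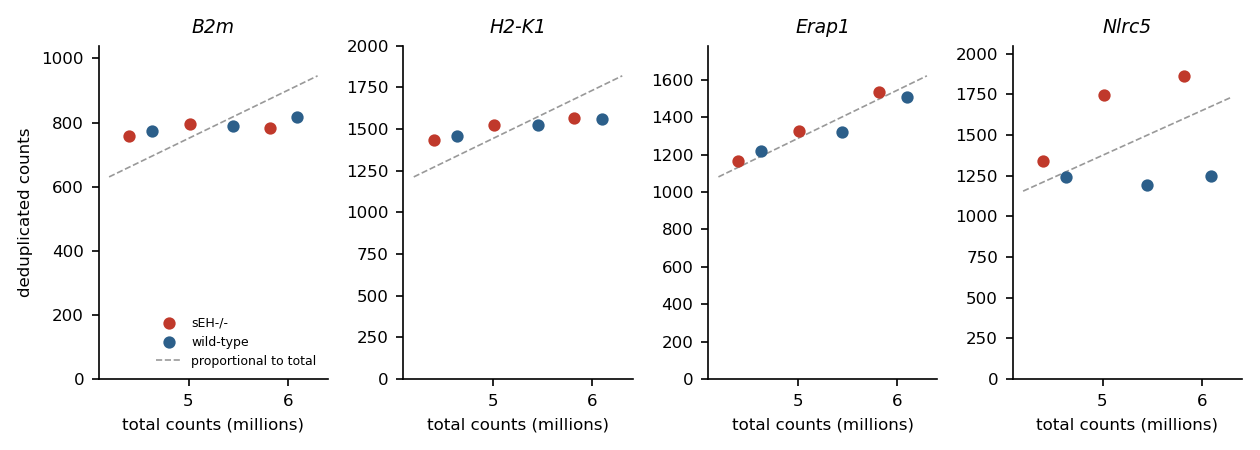
Deduplicated counts (vertical axes, starting at 0) of B2m, H2-K1, Erap1 and Nlrc5 against the total counts of the library (horizontal axes); red points are sEH-/- and blue points wild-type libraries, and the dashed line shows counts in proportion to the total. B2m stays between 759 and 817 counts over the whole range, Erap1 follows the line, and Nlrc5 has 1341 to 1863 counts in the sEH-/- and 1193 to 1248 in the wild-type libraries.

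Of the 9 genes, none was called by edgeR at an adjusted p below 0.05 and a change beyond 1.5-fold, against 2.61% of all 13785 tested genes. DESeq2 and limma-voom called 0 of 9 too, and 1 of 9, Nlrc5, had an unadjusted p below 0.05. All 9 fitted values were above 0, although those of B2m, H2-D1 and Tap1 fell below it when the library total was a covariate, with a median log2 fold change of 0.092, whereas 6867 of 13785 genes were above 0 and the median of all was -0.00092. The 8 genes other than Nlrc5 had values from 0.03 to 0.11. The median of all tested genes averaging 50 counts or more was 0.089 above 0.6 counts per base, where B2m lies, 0.0918 at 0.4 to 0.6, where H2-D1, H2-K1 and Tapbp lie, 0.043 at 0.2 to 0.4, where H2-T23, Tap1 and Tap2 lie, and -0.0028 at 0.05 to 0.2, where Erap1 and Nlrc5 lie. Erap1 (0.095) and Tap2 (0.092) were above the median of their range and Tap1 (0.034) was below it. The per-library median of the 9 genes, as log2 CPM relative to the wild-type mean, was highest in the library with the lowest total (0.23 in sEH-/- replicate 3) and lowest in the library with the highest total (-0.15 in wild-type replicate 2). The part of the library totals in these small differences was not tested.

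**Figure D5:**
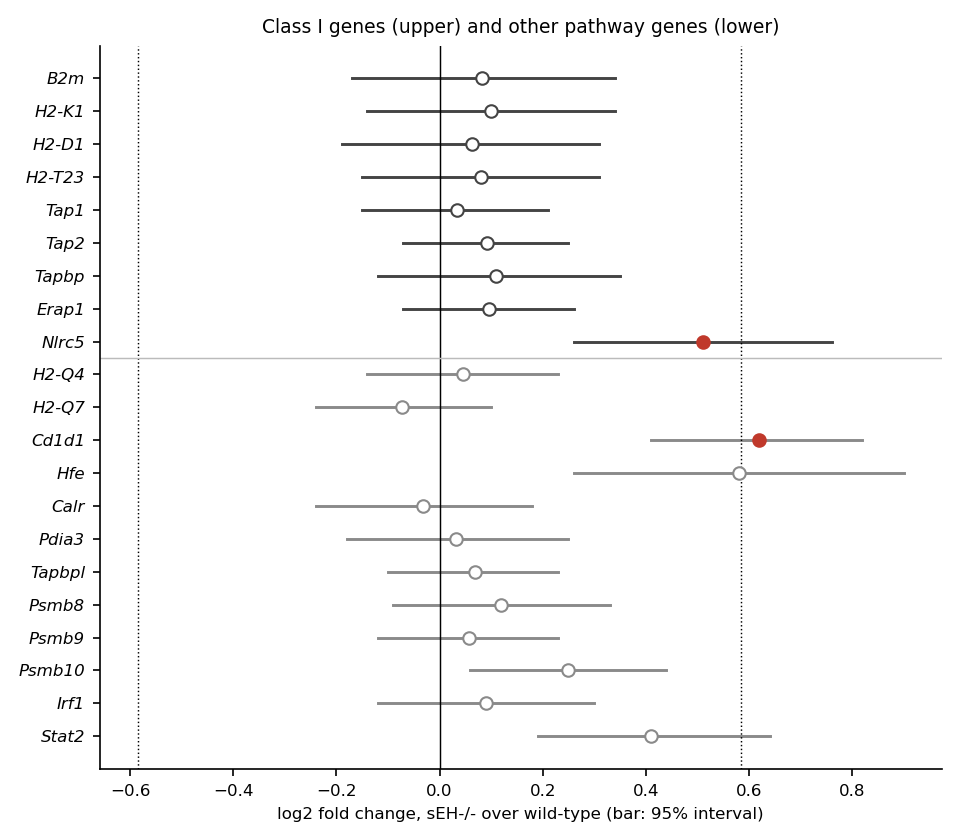
Log2 fold change, sEH-/- over wild-type (horizontal axis), with its 95% interval for the 9 class I genes (above the grey line) and for 12 other genes of the pathway (below it); red points have an edgeR adjusted p below 0.05 and dotted lines mark a 1.5-fold change either way. The intervals of 8 class I genes include 0, that of Nlrc5 runs from 0.26 to 0.76, and Cd1d1 (0.62) lies beyond the fold threshold. Of the 12, Cd1d1 is shown for its adjusted p, Hfe and Stat2 were added after their values were seen, and the rest were fixed by name. Genes named below but not shown include Nfkb1, which was higher, and Nfyb, Nfya and Atf1, which were lower.

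The other genes of the pathway were read from lists of 61 further genes with a row in the matrix, 59 of them tested. Of these, 1 was called higher and none lower in sEH-/- cells (edgeR), and their median log2 fold change was 0.056. DESeq2 and limma-voom each called 1 as well, and 13 of the 59 had an unadjusted p below 0.05 (3221 of all 13785). By list, these 13 included 1 of 10 class Ib chains and 2 of 5 class I-like chains outside the MHC. Further ones were 1 of 5 genes of the immunoproteasome and PA28, 5 of 16 regulators and 3 of 7 interferon receptors and kinases. The last was 1 of 3 listed myeloid receptors, with 0 among the 6 loading factors and the 7 other peptidases. Groups did not overlap for 7 genes that were higher and 3 that were lower, 11.9% and 5.08% of the 59, against 11.8% and 14.5% of all genes tested. The called gene was Cd1d1, the class I-like molecule that pairs with β2-microglobulin and presents lipids to NKT cells. In the sEH-/- libraries Cd1d1 reached 527, 487 and 352 counts, against 291, 356 and 307 in the wild-type ones, a log2 fold change of 0.62 (SE 0.1, interval 0.41 to 0.82, adjusted p = 0.014). Its groups did not overlap in CPM, although sEH-/- replicate 3 and wild-type replicate 2 had nearly equal counts. Without wild-type replicate 2 or 3 its adjusted p was 0.0744 and 0.112, and without sEH-/- replicate 2 its log2 fold change of 0.57 was below the fold threshold.

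Among the other class I-like chains that bind β2-microglobulin, Hfe, which regulates iron uptake, had 535, 616 and 412 counts in the sEH-/- libraries against 381, 361 and 374 in the wild-type ones. Its log2 fold change was 0.58 (interval 0.26 to 0.90) with an edgeR adjusted p of 0.052, so it was not called, and it is named after its values were seen. Mr1, which presents vitamin B metabolites, and Fcgrt, the neonatal Fc receptor, had log2 fold changes of 0.012 and 0.091. Of the class Ib heavy chains encoded in the MHC, 10 of 12 could be tested, none was called (edgeR), 3 were above 0 and 7 below it. H2-Q4 had 1166, 1084 and 974 against 1027, 1164 and 1170 counts (log2 fold change 0.045, adjusted p = 0.80), and H2-Q7, the gene of Qa-2, 801, 686 and 668 against 727, 871 and 845 counts (-0.073, adjusted p = 0.62). These genes share 24.3% and 40.2% of their 50-base windows with other genes, so their counts are uncertain.

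No gene of the peptide supply was called by edgeR. All 5 genes of the immunoproteasome and its PA28 activator had values above 0. Psmb8 had 686, 693 and 600 counts in the sEH-/- libraries against 616, 686 and 660 in the wild-type ones (log2 fold change 0.12, edgeR adjusted p = 0.50), and Psmb9, which shares a bidirectional promoter region with Tap1, had 649, 600 and 548 against 553, 655 and 653 (0.058, adjusted p = 0.71). For Psmb10, the remaining inducible catalytic subunit, the groups did not overlap in CPM, with 560, 547 and 433 against 412, 482 and 496 counts and a log2 fold change of 0.25 (interval 0.06 to 0.44, adjusted p = 0.11). The 7 other peptidases, among them Tpp2 and Lnpep, had log2 fold changes from -0.11 to 0.11. In the loading complex, Calr (calreticulin, a chaperone of glycoproteins), Pdia3 (ERp57, the disulfide isomerase bound to tapasin) and Tapbpl (TAPBPR, a peptide editor) had log2 fold changes of -0.032, 0.031 and 0.068 and adjusted p of 0.88, 0.88 and 0.64. No gene of this list of 6 was called. Signs of Pdia3, Calr and H2-Q4 turned in some settings.

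The regulators upstream of class I transcription did not reach the thresholds. Of 16 such genes none was called or had an edgeR adjusted p below 0.05. Irf1, an interferon-induced factor that binds class I promoters, had 1226, 1246 and 1062 counts in the sEH-/- libraries against 1106, 1248 and 1223 in the wild-type ones (log2 fold change 0.09, adjusted p = 0.62). Stat2 and Nfkb1 are named after their values were seen. Their log2 fold changes were 0.41 and 0.29, both with an edgeR adjusted p of 0.051. Groups did not overlap for these 2 genes, which were higher. The same held for 3 lower ones, Nfyb, Nfya and Atf1, also named after their values were seen. These are 12.5% and 18.8% of the 16 genes, against 11.8% and 14.5% of all genes tested. The adjusted p was below 0.05 in 8 of 15 alternatives for Stat2 (range 0.00152 to 0.242, DESeq2 the lowest) and in 7 of 15 for Nfkb1 (0.036 to 0.212). Nfyb, a subunit of the NF-Y factor that binds the CCAAT box, had 236, 160 and 154 counts in the sEH-/- libraries against 201, 334 and 265, with a log2 fold change of -0.43 (adjusted p = 0.064). Irf8, Rela and Rfx5 had values of -0.0063, 0.056 and 0.17. Among 7 interferon receptor and kinase genes none was called, with a range from -0.13 to 0.24. Jak2 and Tyk2, named after their values were seen, were both at 0.24, with edgeR adjusted p of 0.081 and 0.11. Their groups did not overlap, which held for 2 of the 7 genes (28.6%) in the higher direction, against 11.8% of all genes tested.

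The listed myeloid receptors, Pirb, Lilrb4a and Lilr4b, had log2 fold changes of 0.33, 0.12 and 0.11, none called. They were listed for class I binding, which was not examined here and need not hold for Lilrb4a and Lilr4b. MHC class II genes, which present peptides from the endocytic route, were compared as a neighbouring family of 10 genes. Of these, 9 had values below 0 and the median was -0.18. H2-Eb1 had 275, 254 and 35 counts in the sEH-/- libraries against 491, 669 and 596 in the wild-type ones (log2 fold change -1.57, SE 0.37, edgeR adjusted p = 0.047), with sEH-/- replicate 3 far below the others. H2-DMb2, at low counts of 39 to 45 in sEH-/- and 18 to 25 in wild-type libraries, was higher (1.07, adjusted p = 0.034), and both calls were lost in several settings, H2-Eb1 with DESeq2 (adjusted p = 0.2), with the total as a covariate (0.0751) and without any single one of wild-type replicates 1 to 3 or sEH-/- replicate 2, and H2-DMb2 with DESeq2 (adjusted p = 0.0504), with that covariate (0.0606) and after removal of wild-type replicate 2, wild-type replicate 3 or the second sEH-/- library.

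The genes with the most similar pattern over the 6 libraries were found among the 10277 tested genes averaging 50 counts or more, by the root mean square difference of centred log2 CPM. For Nlrc5 they were Fgd3, Tfec and Znfx1, at differences of 0.0329, 0.034 and 0.039, and their own log2 fold changes were 0.461, 0.514 and 0.449. For B2m they were Mpeg1, Psap and Ctsz (0.0183 to 0.0202), genes with 0.779, 0.893 and 0.853 counts per base. For H2-K1 they were Gnai2, Ctsa and Lamp1, for H2-D1 Cd68, Grina and Cox7c, for H2-T23 Tpi1, Ctsa and Ctsb, and for Tapbp Pkm, Hvcn1 and Shisa5. For Tap1 they were Scamp2, Selenot and Mesd, for Tap2 Galk2, Sdccag8 and Nelfcd, and for Erap1 Acly, Slc43a2 and Trappc12. Nlrc5 lay at 0.235 to 0.267 from the other 8 genes, while B2m, H2-K1, H2-D1, H2-T23 and Tapbp lay within 0.051 of each other and Tap1, Tap2 and Erap1 within 0.0568. Other genes lay between them: for Tap1, Tap2 was at place 239 and Erap1 at place 576 of all genes compared, and for B2m, H2-D1 was at place 24 and Tapbp at place 111. These groups also differ in counts per base, and the points share libraries and totals.

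Ephx2, the deleted gene, had 4, 2 and 1 counts in the sEH-/- and 26, 49 and 57 in the wild-type libraries (log2 fold change -4.05, SE 0.43, edgeR adjusted p = 0.0042), as the labels say. All 9 macrophage markers had at least 10 counts in every library, and their summed level was 2137 to 2572 CPM in the sEH-/- libraries against 1823 to 2315 CPM in the wild-type ones. Beside Nlrc5, the macrophage markers Cd14 (log2 fold change 0.50, adjusted p = 0.029) and C5ar1 (0.67, adjusted p = 0.049) were higher in sEH-/- cells. The neutrophil list, of which 6 of 9 symbols had a row and only S100a8 reached 10 counts in every library, summed to 28.2 to 31.9 CPM in the sEH-/- libraries against 17.4 to 21.2 CPM in the wild-type ones. The dendritic cell list (6 of 8 symbols with a row, Cd209a at 0 in every library) summed to 27.5 to 58.4 and 42.2 to 59.4 CPM, the T and NK cell list (3 of 8, nearly all from Cd4) to 16.4 to 35.9 and 20.7 to 30.8 CPM, and the stromal list (6 of 6) to 9.97 to 29.3 and 8.13 to 63.3 CPM. The B cell list (2 of 5) and the erythroid list (1 of 5) summed to at most 0.605 and 1.97 CPM. The part of these cell types in the Nlrc5 result was not tested.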

How the data were processed

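The authors trimmed reads with Trimmomatic 0.39, aligned them to mm10 with STAR 2.7.7a, removed duplicates with Picard 2.21.7 and also multi-mapping, ribosomal and mitochondrial reads, and deposited raw counts of reads over exons on the gene's strand from featureCounts 1.6.5. These versions are those of the submitters' processing notes, and the study's methods give others for all but Trimmomatic. The labels and the methods also name different library kits (mRNA or total RNA).

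From the counts, genes with a mean above 5 were fitted with edgeR 4.0.16 (TMM, quasi-likelihood test, no covariate, R 4.3.3), with p-values adjusted by Benjamini-Hochberg over all 13785 tested genes (99.82% of counts). Calls needed an adjusted p below 0.05 and at least a 1.5-fold change in either direction, the study's own thresholds. Library totals were 4400197 to 6096440, TMM factors 0.982 to 1.03 and the common biological coefficient of variation 0.0866. DESeq2 1.42.0, limma-voom 3.58.1, other normalizations and filters, a replicate block, the library total as a covariate, a ceiling correction and leaving out each library were alternatives. On simulated counts with 200 changed genes among 13785, the edgeR step called 88% of the 2-fold and 93% of the 4-fold changes, with 10 false calls. The simulated counts followed the library totals and had no limit per base. These shares therefore do not apply to genes with dense counts, such as B2m, H2-D1, H2-K1 and Tapbp. Libraries of a group differed beyond counting noise. Exonic lengths came from GENCODE vM21 (same build) for 19286 of 19309 genes. The named genes were the 9 members, pathway and class II genes with an adjusted p below 0.05, 10 pathway genes fixed by name (1 of them not reported here), Ephx2 and the 3 genes most similar to each member, with others named as chosen after their values were seen. The members and lists were chosen with earlier results of these data known.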

Additional observations from a re-analysis of the deposited data

How the results depend on the processing

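The number of called genes over the whole matrix (360) was 234 with a replicate block, 171 with the total as a covariate, and 553 at adjusted p alone, and it ran from 6 (without wild-type replicate 3) to 625 (without wild-type replicate 1) when a library was left out. Of the 9 class I genes, 1 (Nlrc5) was called at adjusted p alone, and 0 to 1 when a library was left out (1 without wild-type replicate 1). Of the pathway genes, 2 (Cd1d1 and Hfe) were called with RLE size factors and with the ceiling correction, and 0 to 2 when a library was left out, with 0 after removal of wild-type replicate 2, of wild-type replicate 3 or of sEH-/- replicate 2. With the library total as a covariate the log2 fold change turned to -0.00078 for B2m, -0.014 for H2-D1, -0.0012 for Tap1, -0.00038 for H2-Q4 and -0.032 for Pdia3. When a library was left out it ran from -0.018 to 0.16 for H2-D1, from -0.013 to 0.086 for Tap1, from -0.022 to 0.11 for H2-Q4, from -0.1 to 0.034 for Calr and from -0.038 to 0.11 for Pdia3. The cause was not tested. The median of the class I genes stayed between 0.028 and 0.17 in all 15 alternatives to its fit, and Ephx2 between -4.53 and -3.79. Whether the replicate numbers pair the libraries is not known. Deviations of same-numbered libraries correlated at -0.0818, -0.26 and -0.0367. Such deviations are centred within groups of 3 libraries, so these correlations can neither show nor exclude pairing. With the replicate block Nlrc5 had a log2 fold change of 0.52 and an edgeR adjusted p of 0.0604. The call on H2-DMb2 was also lost with the block (adjusted p = 0.0772). The power to detect differences below 2-fold was not measured.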
